A study of Mus musculus with 8 samples.

Results

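The 10 genes described here encode the core machinery of mitotic entry: the kinase Cdk1 with its cyclins Ccna2, Ccnb1 and Ccnb2, the phosphatases Cdc25b and Cdc25c, the inhibitory kinase Wee1, and the kinases Plk1, Aurka and Mastl. They were chosen by name, with earlier results of these data known, and all 10 were found among 21887 protein-coding genes of the mouse. The shares of these genes given below are therefore not those of a list chosen blind. The measurement is chromatin immunoprecipitation followed by sequencing (ChIP-seq) with a polyclonal rabbit antibody against APOBEC2, a member of the AID/APOBEC family of cytidine deaminases found chiefly in striated muscle. The cells were C2C12, a mouse myoblast line that stops dividing and fuses into myotubes when serum is withdrawn. All samples had been moved from growth medium with 10% fetal bovine serum to medium with 2% horse serum, and they were collected at times labelled 14 h and 34 h, with 3 immunoprecipitated (IP) libraries and 1 input library at each. The growth protocol in the labels gives 24 h in place of 14 h, so the earlier time is uncertain. Peak names in the deposited lists carry the tag GFPsh for every library, which the labels do not explain. Whether replicates are separate cultures is not stated, so every p-value below reflects the spread among these libraries alone, which may be technical. Neither APOBEC2-deficient cells nor a control antibody entered the comparisons.

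Cdk1 bound to a cyclin A or cyclin B drives the cell into mitosis. Wee1 holds the complex inactive by phosphorylating Cdk1, the Cdc25 phosphatases remove that phosphate, Aurora A and Plk1 switch the system on, and Mastl (Greatwall) restrains the phosphatase that would undo the work of Cdk1. In cultured myoblasts these genes are active while cells divide and are shut down as cells leave the cycle to differentiate. Many of their promoters carry a cell cycle genes homology region (CHR), a short element read by the MuvB complex, and CCAAT boxes, which are read by NF-Y.

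The genes are grouped here by the number of libraries with a called peak, which depends on the caller's threshold. Peaks were found in 6 of 6 libraries at 8 genes (Cdk1, Ccna2, Ccnb1, Ccnb2, Cdc25c, Wee1, Plk1 and Mastl), in 2 of 6 at Aurka and in 0 of 6 at Cdc25b. Of all protein-coding genes, 2.26% had a peak in all 6 libraries and 20.2% had one in any library. A gene was counted when a peak lay inside it or within 1 kb of its start or end. The deposited lists held between 768 and 1327 peaks at 14 h and between 1068 and 5025 at 34 h, and the median summit of a list stood on 19 to 24 fragments.

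The promoter windows of 5 of the genes show what lay under the summits. Each runs from 250 bases before to 50 bases after the annotated gene start, 5′ to 3′ on the strand of the gene, as given by RefSeq for GRCm38.p6 (the mm10 primary assembly). Plk1 is shown as the gene with the highest single fold, Ccnb2, Ccnb1 and Cdk1 as a cyclin B and kinase set with a summit of every library in the window, and Cdc25b as the gene with no peak. Capitals mark matches on either strand to the CHR letters TTTGAA or TTTAAA or TTCGAA, to the box CCAAT, and to the E2F-type letters TTCCCGC or TTCGCGC or TTGCCGC or TTGGCGC.
Plk1 (chr7:122159185-122159484, + strand): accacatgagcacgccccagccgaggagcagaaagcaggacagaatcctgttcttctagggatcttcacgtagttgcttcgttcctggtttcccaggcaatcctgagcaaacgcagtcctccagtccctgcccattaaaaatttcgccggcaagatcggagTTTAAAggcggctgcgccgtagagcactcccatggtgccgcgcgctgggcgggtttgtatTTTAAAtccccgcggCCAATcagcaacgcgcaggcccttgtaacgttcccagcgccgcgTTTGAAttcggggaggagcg
Ccnb2 (chr9:70421505-70421804, - strand): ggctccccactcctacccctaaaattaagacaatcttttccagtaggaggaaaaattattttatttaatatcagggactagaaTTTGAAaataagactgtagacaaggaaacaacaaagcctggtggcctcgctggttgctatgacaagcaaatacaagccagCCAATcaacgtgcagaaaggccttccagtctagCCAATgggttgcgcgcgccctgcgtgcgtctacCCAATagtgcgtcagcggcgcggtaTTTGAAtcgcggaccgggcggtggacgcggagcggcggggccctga
Ccnb1 (chr13:100786437-100786736, - strand): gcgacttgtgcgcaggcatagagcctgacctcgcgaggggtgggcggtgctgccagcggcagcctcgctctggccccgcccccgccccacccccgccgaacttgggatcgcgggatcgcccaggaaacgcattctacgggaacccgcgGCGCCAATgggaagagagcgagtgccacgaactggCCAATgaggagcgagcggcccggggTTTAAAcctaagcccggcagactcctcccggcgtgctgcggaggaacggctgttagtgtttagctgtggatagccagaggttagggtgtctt
Cdk1 (chr10:69352863-69353162, - strand): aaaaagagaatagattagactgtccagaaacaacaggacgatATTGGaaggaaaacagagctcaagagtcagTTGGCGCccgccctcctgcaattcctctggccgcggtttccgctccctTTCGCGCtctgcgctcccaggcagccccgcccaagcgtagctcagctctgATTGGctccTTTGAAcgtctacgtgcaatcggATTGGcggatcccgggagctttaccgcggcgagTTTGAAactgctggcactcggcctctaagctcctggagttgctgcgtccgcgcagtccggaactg
Cdc25b (chr2:131186698-131186997, + strand): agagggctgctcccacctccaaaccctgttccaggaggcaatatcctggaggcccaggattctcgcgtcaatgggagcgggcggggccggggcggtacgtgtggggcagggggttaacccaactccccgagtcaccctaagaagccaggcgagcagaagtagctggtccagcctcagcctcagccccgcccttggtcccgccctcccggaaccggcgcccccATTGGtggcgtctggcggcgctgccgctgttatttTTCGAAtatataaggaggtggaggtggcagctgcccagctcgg

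In the Plk1 window, the 6 summits lay between positions 202 and 238, counted from 1 at the 5′ end, where a TTTAAA (222 to 227) and a CCAAT (237 to 241) stand, and a TTTGAA follows at 281 to 286. In the Ccnb2 window they lay between positions 235 and 270, around the TTTGAA at 255 to 260 and just past the last of 3 CCAAT matches (164 to 168, 197 to 201 and 230 to 234). In the Ccnb1 window they lay between positions 204 and 228, beside the TTTAAA at 209 to 214. Its E2F-type match (149 to 155) and a CCAAT match (152 to 156) overlapped, and no other matches of these windows did. In the Cdk1 window the summits were spread more widely, between positions 145 and 222, over 2 of the 3 CCAAT matches and the first of 2 TTTGAA matches (180 to 185 and 236 to 241). The summits of these 4 genes were at most 37.5 bp from the centre of the nearest CHR match, with medians of 15.5 bp at Plk1, 12.5 bp at Ccnb2, 5.5 bp at Ccnb1 and 18 bp at Cdk1. The nearest CCAAT match was 1 to 37 bp away at Plk1, 3 to 38 at Ccnb2, 18 to 42 at Ccnb1 and 8 to 28 at Cdk1. At Aurka, whose 2 summits also lay in its window, the nearest CHR match was 9.5 and 120.5 bp away. Whether summits lay nearer to either match than other positions of a window was not tested.

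Such short strings are common. Of 32851 promoter windows of the same length, 28.8% held a CHR match in any form (17.9% TTTGAA, 13.2% TTTAAA and 1.56% TTCGAA), 37.4% held CCAAT on either strand and 9.57% held an E2F-type match. Windows were found for 7 of the 10 genes. A CHR match stood in 6 of the 7, a CCAAT in 7 of 7, and an E2F-type match in 2 (Cdk1 and Ccnb1). Cdc25b, with no peak, also held a CCAAT (223 to 227) and a TTCGAA (258 to 263), so these letters did not divide the genes with a peak from the gene without. The Mastl window held a CCAAT and no CHR match, and its summits lay past the end of the window. A match describes letters in the window and is not a measured site.

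**Figure D1:**
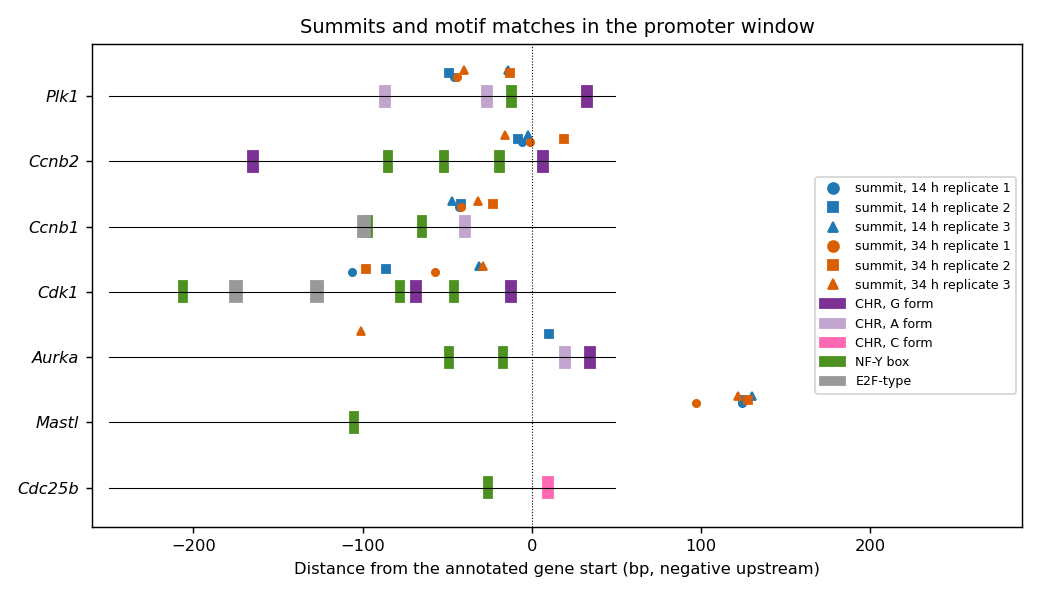
Summits of each library (circles, squares and triangles for replicates 1, 2 and 3; blue 14 h, orange 34 h) and motif matches (coloured boxes) against the distance in bp from the annotated gene start, for the 7 genes with a promoter window (black line). Summits of Plk1, Ccnb2, Ccnb1, Cdk1 and Aurka lie inside the window, those of Mastl lie 97 to 130 bp after the start, and Cdc25b has none.

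Cdk1, the catalytic subunit (chromosome 10, 69335146 to 69352912, mm10), had peaks spanning 69352719 to 69353245, with summits 29 to 106 bp before the annotated start. The fold enrichment, the peak caller's own ratio of IP fragments over those expected at the summit, was 10.1, 18.4 and 10.7 in replicates 1 to 3 of 14 h and 21.6, 25.0 and 15.5 in those of 34 h. Replicates 1 and 3 of 14 h were the lowest, and replicate 2 of 14 h lay within the range of 34 h, so the groups overlapped. The mean was 13.1 ± 4.67 at 14 h (SD, n = 3) and 20.7 ± 4.82 at 34 h (SD, n = 3). No other gene of the 8 had a higher mean fold at 34 h than at 14 h.

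Ccna2, the cyclin that partners Cdk1 and Cdk2 from S phase to early mitosis (chromosome 3, 36564865 to 36573038), had folds of 12.2, 16.0 and 11.2 at 14 h and 8.35, 12.2 and 5.27 at 34 h. The 2 groups overlapped, and replicate 3 of 34 h was lowest. All 6 summits lay 975 to 1123 bp inside the gene from its upper boundary. The neighbouring gene Bbs7 has its lower boundary at 36573142, no closer than 1079 bp to any of them.

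Ccnb1, the main mitotic B-type cyclin (chromosome 13, 100778739 to 100786486), had the lowest mean fold of the 8 genes at both times, with 9.98, 8.51 and 8.63 at 14 h and 6.42, 7.95 and 7.39 at 34 h. Every 14 h value lay above every 34 h value. The peaks rested on 18 to 25 fragments, so the 95% interval of a single fold was wide, from 6.28 to 15.2 in replicate 1 of 14 h and from 3.99 to 9.85 in replicate 1 of 34 h (exact Poisson, counting error of IP fragments alone). The 6 summits fell within 24 bp of each other, the closest set among these genes.

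Ccnb2, the B-type cyclin found largely at the Golgi (chromosome 9, 70407689 to 70421554), had folds of 18.0, 22.6 and 16.8 at 14 h and 10.2, 13.4 and 7.20 at 34 h. The groups did not overlap, and the mean was 19.1 ± 3.08 at 14 h (SD, n = 3) and 10.3 ± 3.10 at 34 h (SD, n = 3). Its summits straddled the annotated start, from 16 bp before to 19 bp after it.

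The Cdc25 phosphatases were split. Cdc25c (chromosome 18, 34732993 to 34751564) had a peak in every library, with folds of 6.39, 19.1 and 12.0 at 14 h and 8.41, 10.6 and 6.46 at 34 h. The spread at 14 h was the widest among the 8 genes relative to the mean (12.5 ± 6.36, SD, n = 3), and it enclosed all the 34 h values. Summits lay 3 to 86 bp outside the upper boundary of the gene. Cdc25b (chromosome 2, 131186436 to 131198511) had no peak in any library. The nearest peak was 6.20 and 6.19 kb away in replicate 2 of 14 h and of 34 h, and 63.8 to 1054 kb away in the other 4. Signal too weak to be called would not appear in these lists.

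Wee1, the kinase that inhibits Cdk1 (chromosome 7, 110122059 to 110143299), had folds of 13.3, 18.2 and 14.6 at 14 h and 4.29, 10.7 and 7.10 at 34 h. The groups did not overlap, and the fold of replicate 1 of 34 h was near the floor of its list (rank 2015 of 2209 peaks). The 95% intervals of replicate 1 were 8.79 to 19.4 at 14 h and 2.56 to 6.81 at 34 h, again for counting error alone. Summits lay from 100 bp outside to 64 bp inside the lower boundary of the gene, a span of 164 bp that was the widest of the 8.

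Plk1, the Polo-like kinase (chromosome 7, 122159435 to 122169884), carried the highest fold of the set in every 14 h library, at 29.8, 46.0 and 37.2, and had folds of 18.9, 28.7 and 15.6 at 34 h. At 34 h its mean of 21.1 ± 6.80 was close to that of Cdk1 (20.7 ± 4.82, SD, n = 3 each), Cdk1 was higher in replicate 1, and without replicate 2 the means were 17.3 for Plk1 and 18.5 for Cdk1. It ranked 13th, 11th and 6th by fold among all peaks of the 14 h lists and 33rd, 13th and 30th in the 34 h lists. Every 14 h value lay above every 34 h value, by a small margin between replicate 1 of 14 h and replicate 2 of 34 h. The peaks spanned 122159159 to 122159661, with all summits 13 to 49 bp before the annotated start and 61 to 128 fragments at the summit.

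Aurka, the Aurora A kinase that activates Plk1 (chromosome 2, 172356190 to 172370886), had a peak in replicate 2 of 14 h (fold 4.13, 23 fragments) and in replicate 3 of 34 h (fold 4.38, 18 fragments) and in no other library. These were among the 3 lowest folds of the set, with Wee1 in replicate 1 of 34 h, and their −log10 q values were 5.39 and 4.29. The 2 summits were 111 bp apart, and Cstf1, a gene for an mRNA 3′ end processing factor, has a boundary 26 bp from the nearer of them, so the peaks cannot be assigned to Aurka alone. The Aurka window held 2 CCAAT matches, a TTTAAA and a TTTGAA.

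Mastl (chromosome 2, 23116539 to 23156024) had the second highest mean fold of the set at 14 h, with values of 20.4, 32.7 and 19.3, and stood at 17.0, 18.9 and 8.52 at 34 h. Each 14 h value was above each 34 h value, the closest pair being replicate 3 of 14 h and replicate 2 of 34 h. Summits lay 97 to 130 bp after the annotated start. Yme1l1, a mitochondrial protease gene, overlaps that end of Mastl (23155442 to 23199260), so these peaks lie in both genes.

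**Figure D2:**
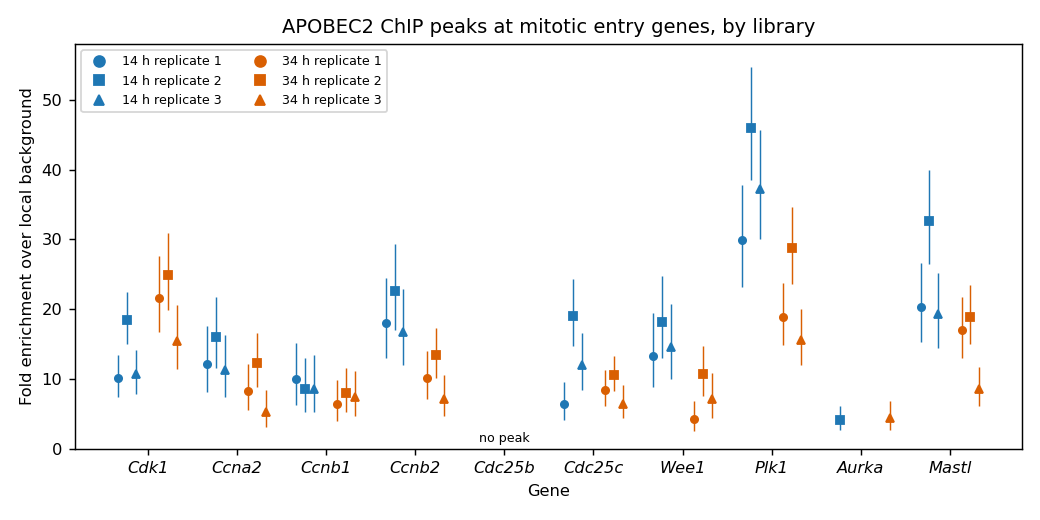
Fold enrichment over local background (vertical axis, linear) of the highest peak at each of the 10 genes, 1 point per library, with 95% exact Poisson intervals for the IP fragments (counting error alone). Plk1 is highest in every 14 h library, and Cdk1 (21.6) lies above Plk1 (18.9) in replicate 1 of 34 h. Of the 8 genes with a peak in all libraries, Cdk1 alone has a higher mean at 34 h. Aurka has a peak in 1 library of each time and Cdc25b in none.

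The first comparison between the times counted the genes with a peak. At 14 h 8, 9 and 8 of the 10 had a peak in replicates 1 to 3, and at 34 h 8, 8 and 9 did, against 3.72%, 6.5% and 3.97% of all protein-coding genes at 14 h and 9.24%, 18.1% and 4.7% at 34 h. The means were 8.33 ± 0.577 at each time (SD, n = 3 each), a difference of 0 (exact two-sided permutation test, p = 1). In at least 2 of 3 libraries, 8 of the 10 genes had a peak at 14 h and 8 at 34 h, against 4.27% and 9.01% of all genes, and they were the same 8. The count was not independent of list length. When each list was held to the 768 peaks with the highest −log10 p, 8 genes had a peak in each 14 h library and 6, 7 and 7 in those of 34 h (exact permutation, two-sided p = 0.1, the lowest value that 3 against 3 libraries can reach). The genes then lost at 34 h were Ccnb1 and Wee1 in replicate 1, Ccnb1 in replicate 2, and Ccna2 and Aurka in replicate 3, and Aurka was also lost in replicate 2 of 14 h. The −log10 p used for this cut depends on the local background as well as on the fragments, and what lowered these counts was not tested. In bulk chromatin, such counts cannot tell apart fewer cells with a signal, less signal per cell and a higher background.

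The second comparison asked how strong these loci were at each time. Every 14 h fold lay above every 34 h fold at 5 of the 8 genes with a peak in all libraries (Ccnb1, Ccnb2, Mastl, Plk1 and Wee1), and the reverse held at 0. Among all 495 genes with a peak in all 6 libraries, the 14 h folds lay above the 34 h folds at 33.9% and below at 2.02%. The median difference of mean log2 fold, 34 h minus 14 h, was −0.44 over those 495 genes. It was −1.15 at Wee1, −0.93 at Ccnb2, −0.86 at Plk1, −0.74 at Mastl, −0.67 at Ccna2, −0.45 at Cdc25c and −0.32 at Ccnb1, and 0.69 at Cdk1. These folds come from lists called separately and were not tested between times.

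The fold holds an IP signal and a background, and both were separated, since a peak's fold and its −log10 p together fix the number of fragments at its summit and the background expected there. Fragments at the summit, not scaled for library depth, overlapped between times at all 8 genes. Over the 429 regions in all 6 libraries, the median was 31, 54 and 34 at 14 h and 34, 50 and 29 at 34 h. Replicate 2 was thus highest at both times, which makes overlap likely whatever the signal. Plk1 had 66, 128 and 90 fragments at 14 h and 74, 106 and 61 at 34 h, and Wee1 had 25, 39 and 29 and then 16, 35 and 19. Over the 429 regions with a peak in all 6 libraries, unscaled fragments lay wholly higher at 14 h in 0.932% and wholly higher at 34 h in 3.73%. Ranked within each library, fragments lay wholly higher at 14 h at Wee1 and overlapped at the other genes. The share of regions with that pattern was not counted.

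The background, given without scaling between libraries as well, did not overlap between times at any of the 8 genes. It was higher in all 34 h libraries than in all 14 h libraries at 7 of the 8 genes, as it was in 65.7% of the 429 regions. At Plk1 it was 1.24, 1.80 and 1.44 fragments at 14 h and 2.96, 2.73 and 2.96 at 34 h, and at Wee1 0.954, 1.20 and 1.06 and then 2.96, 2.38 and 1.82. Cdk1 went the other way, as 4.66% of the regions did. Its background was 3.66, 4.21 and 3.32 at 14 h and 1.91, 2.29 and 1.98 at 34 h, while its fragments were 46, 95 and 45 at 14 h and 62, 81 and 45 at 34 h. Such backgrounds are few fragments, and their counting error was not estimated. The same value can recur at several genes, as 1.98 did at Cdk1 and Ccnb1 in replicate 3 of 34 h. How the caller scaled the input to each library was not examined. Exact two-sided permutation tests gave p = 0.1 for the background at each of the 8 genes, the smallest value possible. The 3 libraries of a time were called against a single input, so their backgrounds are not independent and the difference between times cannot be told apart from that between 2 input libraries.

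**Figure D3:**
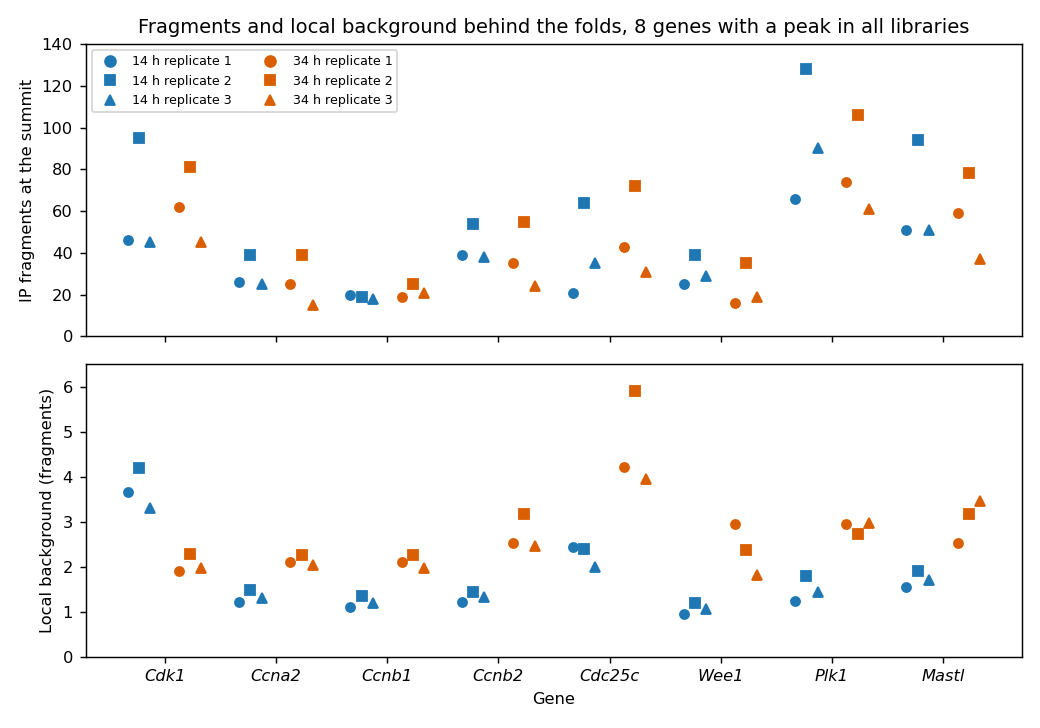
IP fragments at the summit (upper panel) and the local background in fragments (lower panel), 1 point per library, for the 8 genes with a peak in all 6 libraries. Fragments overlap between 14 h (blue) and 34 h (orange) at each gene, whereas the background is higher at 34 h at 7 genes and lower at Cdk1. Neither is scaled between libraries.

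To set folds of unequal lists side by side, each gene was placed among the 429 regions with a peak in all 6 libraries, as a percentile of fold within each library (100 is the highest). Plk1 stood at 97.2, 97.7 and 98.8 at 14 h and at 92.5, 97.2 and 93.5 at 34 h, near the top throughout. Mastl was second at 14 h, at 86.0, 89.3 and 81.3, and stood at 89.0, 84.2 and 60.3 at 34 h, below both Cdk1 and Plk1. Ccnb1 was the lowest of the 8 on average at both times, with means of 26.9 ± 14.4 and 27.9 ± 15.8 (SD over 3 libraries).

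Cdk1 had the largest difference of the 8 genes. It stood at 42.3, 54.7 and 40.4 at 14 h and at 96.7, 94.2 and 93.0 at 34 h, that is at ranks 248, 195 and 255 and then 15, 26 and 31 of 429. The difference of 48.8 points was the 5th largest increase among the 429 regions. The groups did not overlap, as at 15.2% of regions in this direction (exact two-sided permutation test, p = 0.1, 0.267 after Benjamini-Hochberg adjustment over 8 genes). With −log10 p ranked in place of fold the difference was 23.0 points (exact p = 0.1), and with fragments at the summit ranked it was 7.36 points (exact p = 0.3). The background of Cdk1, ranked in the same way, had a mean percentile of 89.7 at 14 h and 23.9 at 34 h. The fold holds this background, and the libraries of a time share 1 input. The tests of fold percentile, here and below, therefore cannot tell the times apart from the 2 inputs.

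Wee1 and Ccnb2 stood lower at 34 h without overlap, as was the case at 17.5% of regions. Wee1 stood at 62.6, 53.0 and 63.8 at 14 h and at 7.83, 37.6 and 41.8 at 34 h, a difference of −30.7 points. Its fragments alone gave −20.2 points (exact p = 0.1). Without replicate 1 of 34 h the difference in fold percentile was −19.8 (exact p = 0.1). Ccnb2 stood at 80.6, 69.6 and 71.8 and then at 53.9, 59.3 and 42.8, a difference of −22.0 points, and its fragments gave −8.88 (exact p = 0.5). Without replicate 3 of 34 h the difference for Ccnb2 was −14.6 (exact p = 0.1). Both had exact two-sided permutation p = 0.1 for the fold percentile, adjusted 0.267 over the 8 genes. None of the 8 genes passed 0.05, which 3 against 3 libraries cannot reach.

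At the other 5 genes the groups overlapped, or met at a tied value in the case of Plk1 (97.2), with differences of −14.5 points for Ccna2 (−2.14 without replicate 3 of 34 h), −7.67 for Mastl, −4.09 for Cdc25c, −3.50 for Plk1 and 1.01 for Ccnb1 (exact two-sided permutation p from 0.2 to 1, adjusted 0.4 to 1). The median over the 8 genes was 59.1, 56.2 and 57.4 in the 14 h libraries and 46.6, 54.6 and 44.4 in those of 34 h. The difference of −9.07 points (exact p = 0.1) turned to 2.67 (exact p = 0.7) when fragments were ranked, and to 3.27 (exact p = 0.8) for the 6 genes left when peaks needed a −log10 q of 5 or more. Without replicate 3 of 34 h it was −4.98 (exact p = 0.1).

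**Figure D4:**
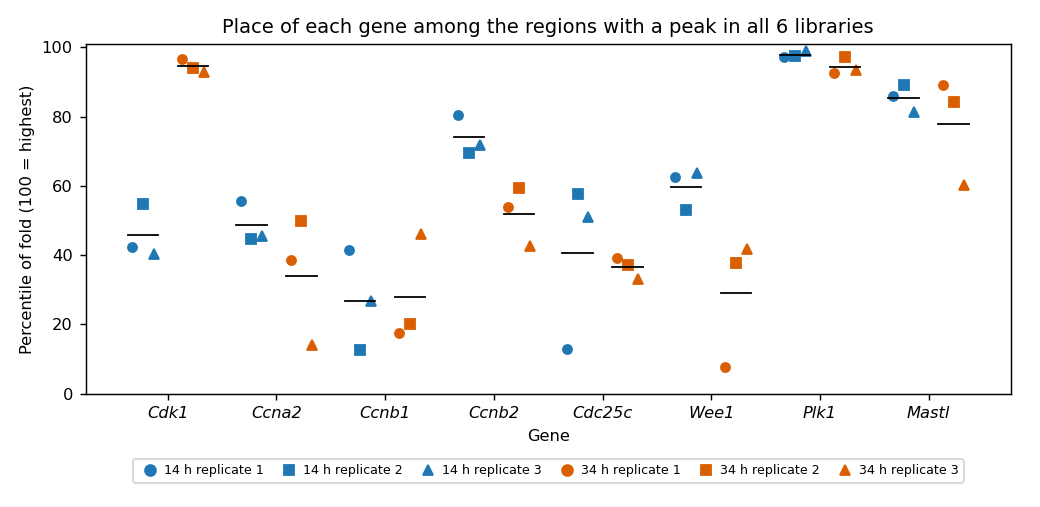
Percentile of fold of each gene among the 429 regions with a peak in all 6 libraries (vertical axis, 100 is the highest), 1 point per library, with black bars for the mean of 3 libraries. Cdk1 stands at 45.8 at 14 h and 94.6 at 34 h on average, Wee1 and Ccnb2 stand lower at 34 h, and Plk1 is above 92 in every library.

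Apart from Ccna2, every summit lay within 130 bp of the gene start or nearer boundary. The median distance over the genes with a peak was 44.5, 49 and 39 bp in the 14 h libraries and 60.5, 64 and 40 bp in those of 34 h. The mean was 44.2 ± 5.01 bp for 14 h and 54.8 ± 13.0 bp for 34 h (SD, n = 3 each). The difference of 10.7 bp gave p = 0.3 (exact two-sided permutation test, which cannot go below 0.1 here). It was 6.08 bp without replicate 2 of 34 h and 18.1 bp without replicate 3 of 34 h (exact p = 0.6 and 0.1). For Ccna2, Cdc25c and Wee1, with no promoter window in the table used, distance was taken from the nearer gene boundary.

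The wider circuit around these genes was covered by 30 other genes of mitotic entry, including regulators, cofactors and transcription factors. Of these, 19 had a peak in at least 2 of 3 libraries at 14 h and 22 at 34 h, against 4.27% and 9.01% of all genes, and 14 had a peak in all 6. The highest mean folds over the libraries with a peak were those of Lin9 (30.5), a MuvB subunit, the transcription factor Mybl2 (25.5), Gtse1 (24.6), a regulator of p53 in G2 phase, and Foxm1 (19.6), a transcription factor of late cell cycle genes. Aurkb, the Aurora kinase of the chromosomal passenger complex, had a peak in 6 of 6 libraries (folds 17.8, 30.8 and 18.2, then 9.57, 10.2 and 9.87), in contrast to 2 of 6 for Aurka. Cdc25a, the third Cdc25 phosphatase, had peaks in 5 of 6, with folds from 6.77 to 13.8, and Pkmyt1, the Wee1-related inhibitor of Cdk1, in 6 of 6, with folds from 4.78 to 10.9.

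Of the 30, 25 had a peak in at least 1 library, against 20.2% of all protein-coding genes, and 5 had none. The 5 were Arpp19, a Mastl substrate, Cdk2, the S phase kinase, Cdk7 and Ccnh, subunits of the Cdk-activating kinase, and Fzr1, an activator of the anaphase-promoting complex. Ensa, the Mastl substrate related to Arpp19, and Mnat1, the third subunit of the Cdk-activating kinase, had peaks in each of the 3 replicates at 34 h and were without one at 14 h. More of all genes had a peak in at least 2 libraries at 34 h (9.01%) than at 14 h (4.27%), and the share with this pattern was not counted. The highest Mnat1 peaks had summits from 73242121 to 73242140, far from those at 73147389 and 73147376 in replicates 1 and 2. Of 7 relatives with germline or non-mitotic roles (Ccna1, Ccnb3, Aurkc, Wee2, Plk2, Plk3 and Plk5), 0 had a peak in 2 or more libraries of a time, against 4.27% and 9.01% of all genes. Plk2 had 1 in replicate 2 of 34 h (fold 7.59), where 18.1% of all genes had one. Of 10 muscle genes (Myod1, Myog, Myf5, Mef2c, Myh3, Actc1, Ckm, Des, Cdh15 and Pax7), Pax7 had 1 in the same library (fold 6.00) and the others none, so the myogenic identity of the cells was not tested by these peaks. At the shares of all genes, lists of 7 and 10 genes are too small to show an absence of peaks.

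**Figure D5:**
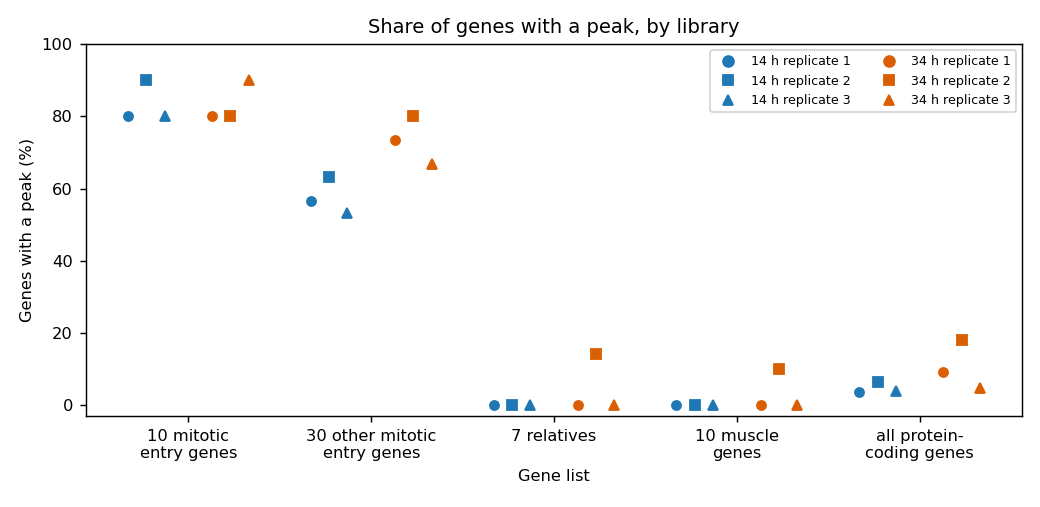
Share of genes with a peak (%) in each library for the 10 mitotic entry genes, 30 other mitotic entry genes, 7 relatives, 10 muscle genes and all 21887 protein-coding genes. The mitotic entry genes stand at 80 or 90% in every library, and all protein-coding genes between 3.72 and 18.1%.

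By the distance between log2 folds over the 6 libraries, the genes most like the members, among genes with peaks elsewhere, were E2f3 for Plk1 (distance 0.18), Haus6 for Ccnb2 (0.19), Prc1 for Ccna2 (0.40), Mcm3 for Mastl (0.45), Sf3b5 for Ccnb1 (0.46), Nubp1 for Cdc25c (0.49), Haus4 for Wee1 (0.52) and Poc1a for Cdk1 (0.54). Poc1a had folds of 11.1, 20.7 and 10.4 at 14 h and 16.5, 20.9 and 17.3 at 34 h, and E2f3 had 30.6, 49.6 and 37.8 and then 18.7, 27.2 and 16.9. The measure compares levels in the same 6 libraries, which share their depth and their input at each time.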

How the data were processed

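Each of the 6 IP libraries had deposited peaks and summits on mm10, called library by library with the matching input, per the peak names. Reads were processed with Subread and MACS2, per the submitters' processing notes, with versions and threshold not stated there. The deposited fold is a linear ratio, the deposited significance values are −log10 p and −log10 q, and a deposited integer score was not used. Column 10 gives the summit offset.

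Groups and replicate numbers came from sample titles. The members and lists, and the motifs searched, were chosen with earlier results of these data known. Gene positions came from RefSeq on GRCm38.p6. Fragments and background were solved for 100% of peaks, to 0.001 in −log10 p, from fold as (fragments + 1) / (background + 1) and an upper Poisson tail. Peaks overlapping by at least 1 bp were merged into 5573 regions. Tests were exact two-sided permutation tests over libraries. Named genes were the 10 members, lists with their highest genes as examples, the gene most like each member, and neighbours within 1 kb of its peaks. Aurkb, Cdc25a, Pkmyt1, Ensa, Mnat1 and the list genes without peaks were named after their values were seen. Scripts (Python 3.11.15, pandas 2.3.3, scipy 1.17.1) were tested on simulated data. The inputs entered through the caller alone. Alternatives were stricter peaks, lists of equal length, other windows, required libraries and ranked values, each library left out, and a replicate block.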

Additional observations from a re-analysis of the deposited data

How the results depend on the processing

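Counts of genes with a peak in at least 2 libraries of a time were 7 or 8 under all alternatives that kept this rule. They were 8 at each time when all 3 libraries were required and 9 when any library was enough. The difference in genes per library was 0 with a 5 kb window, with boundaries alone and by summit, −1 at a −log10 q of at least 5 and −1.33 with lists of equal length, and −0.333 to 0.333 with a library left out. The median percentile difference of −9.07 was −4.98 to −12.0 with a library left out and −8.29 with −log10 p ranked. It reversed to 3.27 at a −log10 q of at least 5, where Ccna2 and Wee1 left the set, to 4.98 with lists of equal length, where 5 genes were left, and to 2.67 with fragments ranked, an alternative chosen after seeing the data. Single genes that reversed had small differences. With −log10 p ranked Ccnb1 gave −2.80 and Cdc25c 11.3, and with fragments ranked Cdc25c gave 19.3. With a library left out Ccnb1 ran from −7.44 to 6.31, Cdc25c from −18.4 to 4.55 and Mastl from −13.0 to 0.94. The cause was not tested. For Cdk1 the difference stayed between 43.0 and 52.8 with a library left out. The summit distance difference was 6.08 to 18.1 bp with a library left out. The peaks of Ccnb1 and Aurka rested on 18 to 25 fragments. At 34 h, Ccna2 had 15 in replicate 3, and Wee1 had 16 in replicate 1 and 19 in replicate 3. Such counts limit what could be seen at these genes.

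Replicate numbers are shared between times, but the labels do not say that they pair libraries. Deviations from the group mean over the 429 regions correlated at 0.05, 0.26 and 0.08 for numbers 1, 2 and 3. Pairs of unlike number ran from −0.20 to 0.13. Replicates 2 and 3 of 14 h correlated best with the same number at 34 h. Replicate 1 of 14 h correlated best with replicate 3 of 34 h (0.13). With the replicate block, the differences were 0 genes (exact p = 1), −9.07 points (exact p = 0.25) and 10.7 bp (exact p = 0.25), where 0.25 is the smallest that 3 pairs allow.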
